A study of Mus musculus with 48 samples.

Results

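Transcripts of 33 genes for glucose uptake, glycolysis and lactate handling were measured by RNA-seq in slices of mouse kidney kept in culture. The genes were chosen by symbol, and each was found among the 55487 gene IDs of the count table. They cover 4 facilitated glucose carriers (Slc2a1 to Slc2a4), 3 hexokinases, the enzymes from glucose-6-phosphate isomerase to pyruvate kinase, 4 PFKFB enzymes that set fructose-2,6-bisphosphate, 2 lactate dehydrogenase subunits, 4 pyruvate dehydrogenase kinases and 2 monocarboxylate carriers. All 33 had enough counts to be tested in every comparison, and Pfkfb1 lay closest to the detection limit, with 3 to 41 counts per library. A second gene ID that carries the symbol Aldoa held 0 to 26 counts and was left aside.

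Donors of the slices were male C57BL/6J and DBA/2J mice, 2 inbred strains from which the BXD recombinant inbred lines descend. No genetic change, age or further agent is given for any group. Within each strain there were 8 conditions with 3 libraries each, 48 libraries in all: control, tunicamycin (which blocks N-glycosylation) and cyclosporin A (a calcineurin inhibitor) at 6 h and 24 h, a normoxia arm named as an ischemia model, and a normoxia-hyperoxia arm named as a reperfusion model. Both oxygen arms are dated to 24 h by the sample titles. Drug doses, the oxygen level over the control slices and the moment of the switch to hyperoxia are not given in the sources used here. The oxygen arms have no controls of their own and were set against the 24 h and 6 h controls of the drug arms, so oxygen and any other difference between these parts of the study cannot be told apart. Whether replicates came from separate mice is not stated, and p-values measure the spread between these libraries, which may be technical.

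Glucose enters cells through carriers of the Slc2a family, is trapped by hexokinase and is split along glycolysis to pyruvate, which lactate dehydrogenase turns to lactate for export by monocarboxylate carriers. Pyruvate dehydrogenase kinases hold pyruvate back from oxidation in the mitochondria. In the kidney, proximal tubule cells mostly burn fatty acids and other fuels and make glucose, while distal segments and the medulla rely more on glycolysis. Many genes of the pathway are known targets of the hypoxia-inducible factors, which act when oxygen is scarce, and of Myc.

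Library totals ran from 5619309 to 25137581 counts with a median of 19607361. Replicate 2 of the DBA/2J normoxia-hyperoxia group was the shallowest, and no other library had under 12384733. It also had the lowest mean correlation with its own group, 0.9754 on log2 levels. Without it, the number of members called stayed at 28 for normoxia-hyperoxia against 24 h controls and at 31 for the comparison between the oxygen arms, and it was 20 in place of 21 against 6 h controls. Markers of proximal tubule, thick ascending limb, distal tubule, collecting duct, podocytes and endothelium were all detected. Marker levels moved with the conditions: all 8 proximal tubule markers fell from 6 h to 24 h in culture, and all 8 rose under normoxia against 24 h controls. In bulk slices, fewer cells of a type and less RNA per cell cannot be told apart.

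Levels are given as CPM, the counts scaled to library size with normalisation factors. A member was called when the edgeR quasi-likelihood test gave a Benjamini-Hochberg adjusted p under 0.05 over all genes of the comparison. Together the members took 1.5% ± 0.137 of all counts in C57BL/6J and 1.36% ± 0.0599 in DBA/2J control slices at 6 h (SD, n = 3). At 24 h the shares were 2.52% ± 0.066 and 2.2% ± 0.221, and under normoxia they were 0.655% ± 0.0208 and 0.672% ± 0.0289 (SD, n = 3). Under normoxia-hyperoxia they were 1.26% ± 0.134 and 1.16% ± 0.0926 (SD, n = 3). The 6 normoxia libraries lay below every other library, and the 6 control libraries of 24 h lay above all control libraries of 6 h and all oxygen-arm libraries. Mitochondrial transcripts took 23.9% ± 1.55 and 12.3% ± 0.534 of counts under normoxia and 6.82% ± 0.970 and 3.52% ± 0.116 in 24 h controls (C57BL/6J and DBA/2J, SD, n = 3). In the same order they took 15.4% ± 0.783 and 8.16% ± 0.145 in 6 h controls (SD, n = 3). Under normoxia-hyperoxia they took 14.1% ± 2.32 and 13.7% ± 3.30 (SD, n = 3). The part of mitochondrial transcripts in the members' shares was not tested.

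**Figure D1:**
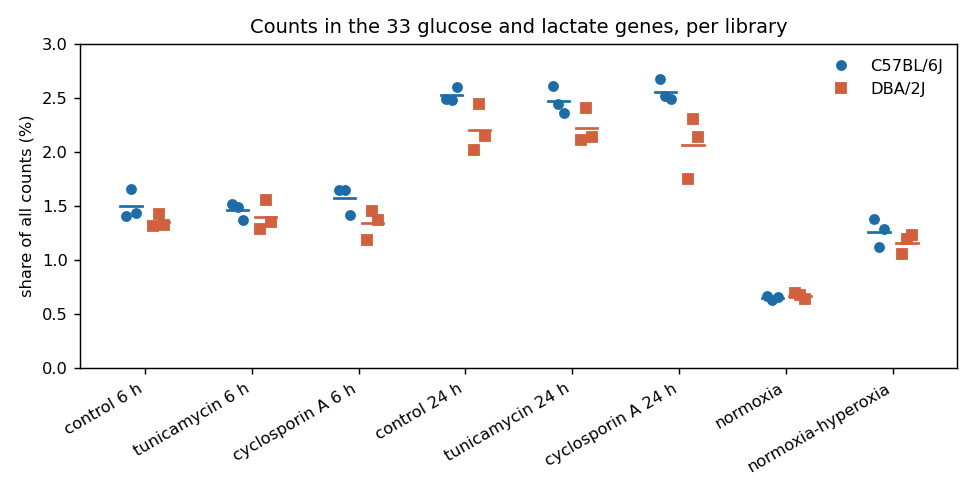
Share of all counts (%, y axis) taken by the 33 genes in each library, by condition (x axis). Circles are C57BL/6J and squares DBA/2J, 3 libraries a group, with a line at the group mean. Shares were highest in the 24 h control and drug groups and lowest under normoxia, where the means were 0.655% and 0.672%.

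The abundant members also changed order. Per kilobase of annotated exon, Ldhb was the highest member at 6 h, with a median of 757.9 CPM per kb over 6 control libraries, followed by Slc2a1 at 620.8 and Aldoa at 589.01. In 24 h controls Aldoa led with 1182 CPM per kb, ahead of Gapdh at 637.6 and Pkm at 603.03, and Ldhb had rank 10 with 190.3. Under normoxia Ldhb led again with 770.1 CPM per kb, and Slc2a1 was no longer among the first 10. Under normoxia-hyperoxia the order opened with Ldhb at 724.9, Slc2a1 at 531.8 and Aldoa at 510.4 CPM per kb.

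Culture from 6 h to 24 h raised most enzymes of the main glycolytic chain and lowered Ldhb, Pdk2, Slc2a2 and Slc2a4, among others. Of 33 members, 17 rose and 9 fell. Over all genes tested, 34.7% rose and 37.4% fell, 72% in all, so a call by itself says little here. The median log2 fold change was 0.42 over the members and -0.02 over all genes. With library totals alone as the scale, the median of all genes moved to 0.19 and the members split into 21 higher and 9 lower. The 4 largest increases were those of Slc16a3, Pfkl, Eno1 and Pkm, and the 4 largest decreases those of Slc2a2, Ldhb, Slc2a4 and Pdk2.

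Slc16a3 (chr11:120948480-120960868, plus strand, GRCm38) encodes MCT4, the carrier by which glycolytic cells export lactate. Its levels at 6 h were 26.8, 68.2 and 33.4 CPM in C57BL/6J and 32.4, 34.3 and 35.3 in DBA/2J. At 24 h they were 181, 207 and 210 CPM and 173, 229 and 185. No 24 h library reached down to a 6 h library, and the rise was 5.12-fold (log2 2.36, SE 0.19, adjusted p = 5.11e-07). Ldha (chr7:46841475-46855627, plus strand) encodes the lactate dehydrogenase subunit that favours lactate formation. It rose 2.22-fold (log2 1.15, SE 0.07, adjusted p = 5.06e-09), from 742 to 948 CPM over the 6 control libraries of 6 h to 1689.8 to 2016 at 24 h. Ldhb (chr6:142490249-142507957, minus strand), the subunit common in oxidative tissues, went the other way and fell 3.95-fold (log2 -1.98, SE 0.10, adjusted p = 5.83e-10). Ldhb stood at 1278, 1044 and 1166 CPM in C57BL/6J at 6 h and at 220, 281 and 220 at 24 h. In DBA/2J it went from 1268, 1214 and 1154 to 388, 317 and 455 CPM, and the 2 time points did not overlap in either strain.

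Other enzymes of the main chain also rose. Pgk1 (chrX:106187100-106203699, plus strand), the first enzyme of the pathway to yield ATP, rose by 1.25 on the log2 scale (SE 0.07, adjusted p = 9.88e-10). Eno1, the common enolase, rose 2.79-fold, Pkm, the main pyruvate kinase gene, 2.55-fold and Pfkl, the liver-type phosphofructokinase, 2.80-fold. Gapdh rose 2.04-fold, Pgam1 2.14-fold, Aldoa 1.94-fold and Tpi1 1.76-fold. Gapdh, often used as a reference gene, ranged from 1073 to 1438 CPM in 6 h controls and from 2018 to 3065 in 24 h controls.

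Hk2 (chr6:82725025-82774454, minus strand), the inducible hexokinase, rose 2.44-fold, from a range of 43.4 to 113 CPM to 161 to 215 CPM. Hk1, the hexokinase found in most cells, was not called (log2 0.21, SE 0.10, adjusted p = 0.0754). Pdk1 (chr2:71873224-71903858, plus strand) rose 1.58-fold and Pdk4 1.42-fold, while Pdk2 fell 3.77-fold. Slc2a1 (chr4:119108711-119137983, plus strand), the basal glucose carrier GLUT1, fell 1.40-fold (log2 -0.48, SE 0.11, adjusted p = 0.00114), with overlap between the times. Pfkfb3 (chr2:11471433-11554077, minus strand), whose product drives phosphofructokinase, fell 2.26-fold. Slc2a2, the carrier GLUT2 of proximal tubule and liver, fell 4.06-fold and Slc2a4, the insulin-regulated carrier GLUT4, 3.78-fold.

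Beside these decreases, the summed level of the 8 proximal tubule markers went from 3307 to 8903 CPM at 6 h to 447 to 2346 CPM at 24 h. All 15 markers of thick ascending limb, distal convoluted tubule, principal and intercalated cells also fell, as did 4 of 4 podocyte, 3 of 3 erythroid, 3 of 4 fibroblast and mural and 4 of 6 leukocyte markers. Of the markers on these lists 2 rose, both leukocyte markers. Endothelial sums overlapped between 6 h and 24 h, at 971 to 1393 and 927 to 1202 CPM in C57BL/6J. In DBA/2J they were 583 to 824 and 497 to 829 CPM. The part of these cells in the decrease of Slc2a2, Ldhb, Slc2a4 and Pdk2 was not tested. Adipocyte markers, which would accompany Slc2a4 from fat, summed to at most 0.285 CPM in any control or oxygen-arm library. Skeletal muscle markers summed to at most 1.00 CPM.

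**Figure D2:**
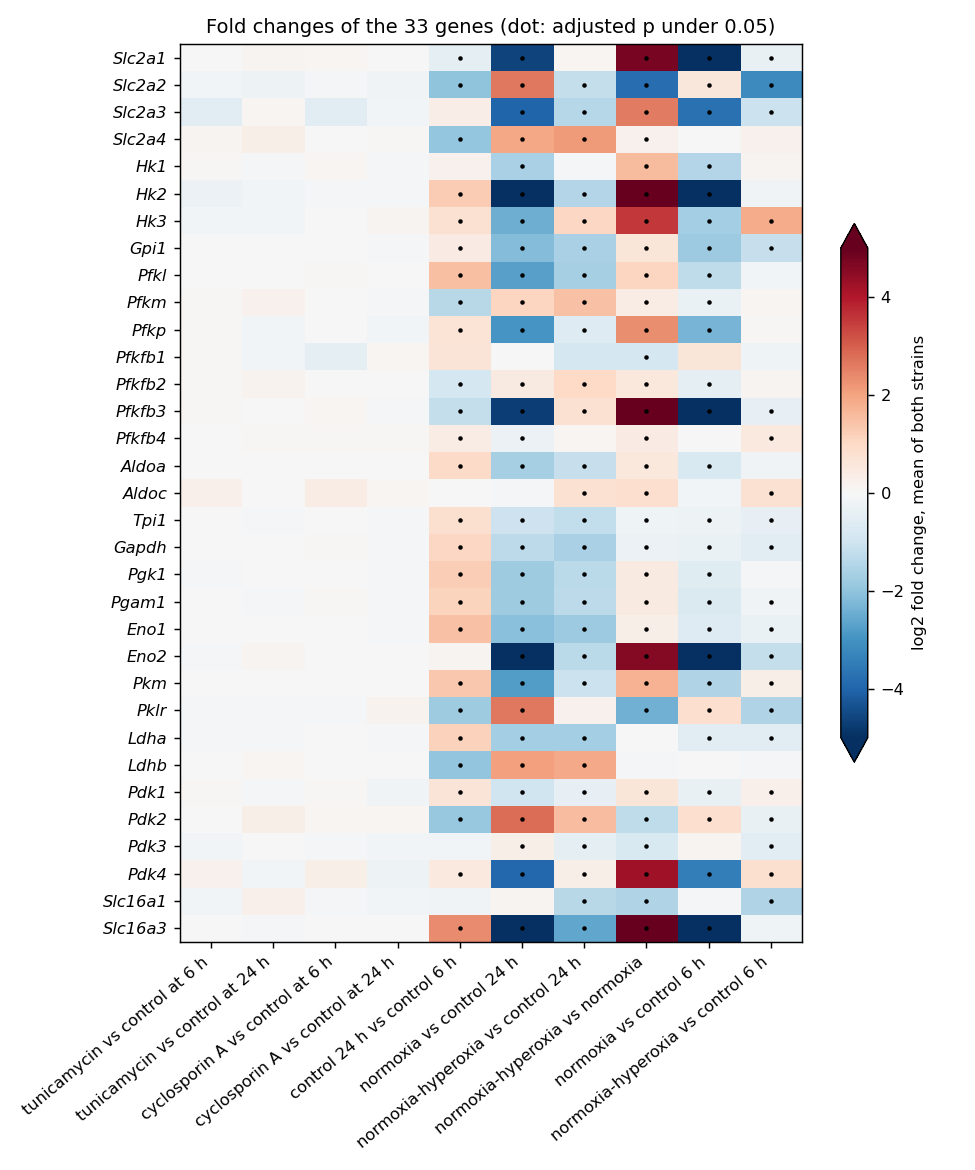
Log2 fold change (colour scale, mean of both strains, saturating at 5) of the 33 genes (rows) in 10 comparisons (columns). A dot marks an adjusted p under 0.05. The 4 drug columns hold no dot, and the columns that involve time or the oxygen arms hold 21 to 31.

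By the edgeR test neither drug gave a called member at either time. With tunicamycin the count was 0 of 33 at 6 h, where 0% of all genes were called, and 0 of 33 at 24 h, where 1.38% were. For cyclosporin A it was 0 of 33 at both times, with 0% of all genes called at 6 h and 0% at 24 h. At an unadjusted p under 0.05 the edgeR test had 1 and 3 members for tunicamycin at 6 h and 24 h and 2 and 1 for cyclosporin A. DESeq2 also called 0 members in each of the 4 comparisons, while a fit with the replicate number as a block called 1, for tunicamycin at 24 h. The member furthest from 0 was Slc2a3 at log2 -0.57 (SE 0.215) for tunicamycin at 6 h and -0.57 (SE 0.24) for cyclosporin A at 6 h.

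The 7 genes followed throughout gave small differences, none of them called. For tunicamycin at 24 h the log2 differences were 0.14 (SE 0.08) for Slc2a1, -0.13 (SE 0.07) for Hk2, 0.04 (SE 0.08) for Pfkfb3, -0.01 (SE 0.06) for Pgk1, -0.06 (SE 0.06) for Ldha, -0.08 (SE 0.07) for Pdk1 and -0.08 (SE 0.08) for Slc16a3. For cyclosporin A at 24 h the same genes lay between -0.18 (Pdk1, SE 0.095) and -0.01 (Slc16a3, SE 0.13). At 6 h the 7 genes lay between -0.30 (Hk2, SE 0.15) and 0.06 (Pdk1, SE 0.07) for tunicamycin and between -0.11 (Hk2, SE 0.18) and 0.09 (Slc2a1, SE 0.15) for cyclosporin A. Pdk4, which encodes the kinase induced by fasting and fatty acids, was the only member whose drug libraries all lay below the controls of their strain, with both drugs at 24 h. Genes without overlap in that direction were 1.68% of all for tunicamycin and 0.734% for cyclosporin A. The Pdk4 differences were -0.13 (SE 0.05, adjusted p = 0.244) and -0.24 (SE 0.06, adjusted p = 0.642), and the 24 h controls are shared by the 2 comparisons.

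Under normoxia most members stood far below the 24 h controls. Of 33 members, 22 fell and 8 rose, beside 39.7% and 42.4% of all genes, 82% together. The median log2 fold change was -1.65 over the members and 0.05 over all genes tested. Scaling by library totals alone moved the median of all genes to -0.22 and left 22 members lower and 6 higher. In 21 of the 22 that fell, every normoxia library of a strain lay below all of its controls, as did 31.6% of all genes. The exception was Pfkfb4, the smallest decrease (log2 -0.29, adjusted p = 0.0259). Pfkfb1, Aldoc and Slc16a1 were not called.

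The largest decrease was that of Slc16a3. Its normoxia levels were 0.852, 0.643 and 0.824 CPM in C57BL/6J and 0.723, 0.996 and 0.399 in DBA/2J, against 173 to 229 CPM in the 6 control libraries of 24 h. This was a 260.9-fold decrease (log2 -8.03, SE 0.14, adjusted p = 7.56e-16), measured with 9 counts or more in each library. Hk2 fell 159.6-fold (log2 -7.32, SE 0.09, adjusted p = 2.03e-17). Its levels were 1.04, 1.12 and 1.26 CPM in C57BL/6J and 1.13, 1.38 and 1.20 in DBA/2J under normoxia, and the lowest control stood at 161. In no library outside the normoxia arm did Slc16a3 or Hk2 come near these levels.

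Eno2, the enolase known from neurons and also induced by low oxygen, fell 61.05-fold (log2 -5.93, SE 0.19, adjusted p = 2.03e-11). Pfkfb3 fell 26.25-fold, from 690.5, 746 and 734 CPM to 34.4, 33.8 and 30.2 in C57BL/6J and from 462, 667 and 538 to 15.1, 16.2 and 18.98 in DBA/2J. Slc2a1 fell 24.81-fold (log2 -4.63, SE 0.11, adjusted p = 3.6e-15). In C57BL/6J Slc2a1 went from 1723, 2019 and 1819 CPM to 69.4, 91.8 and 84.7, and in DBA/2J from 1264, 1841 and 1585 to 55.3, 52.6 and 55.0. Slc2a3, the high-affinity carrier GLUT3, fell 16.11-fold and Pdk4 15.29-fold. These 7 genes span uptake, trapping, control and export, and in each the normoxia libraries of both strains lay below all of their controls.

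The enzymes of the main chain fell less. Gapdh fell 2.51-fold, Tpi1 2.03-fold, Ldha 3.21-fold (log2 -1.68, SE 0.07) and Pgk1 3.46-fold (log2 -1.79, SE 0.06), while Pkm fell 6.997-fold and Pfkl 6.60-fold. Pdk1 fell 1.99-fold (log2 -0.99, SE 0.07, adjusted p = 8.12e-10). Against that direction, Pdk2, a pyruvate dehydrogenase kinase present in most tissues, rose 6.98-fold (log2 2.80, SE 0.09, adjusted p = 2.28e-13), from 34.7 to 60.9 CPM in the controls to 228 to 335 CPM. Pklr, the pyruvate kinase of liver, kidney and red cells, rose 6.30-fold, Slc2a2 6.17-fold and Ldhb 4.09-fold. Slc2a4 and Pfkm, the carrier and phosphofructokinase known from muscle, rose 3.79-fold and 2.13-fold.

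Marker levels of several cell types moved under normoxia. The summed level of the proximal tubule markers was 7572 to 17983 CPM under normoxia and 447 to 2346 CPM in 24 h controls, with no overlap, and 8 of 8 rose. All 15 markers of thick ascending limb, distal convoluted tubule, principal and intercalated cells rose as well, with a median log2 fold change of 1.56 for the thick ascending limb, 1.32 for the distal convoluted tubule, 1.66 for principal and 2.77 for intercalated cells, beside 3.73 for the proximal tubule. The 3 erythroid markers, which could accompany Pklr, summed to 66.3 to 153 CPM under normoxia and to 23.7 to 62.7 in 24 h controls, and 3 of 3 rose. Other lists were lower beside the members that fell. Of 4 podocyte markers 3 fell and none rose, and of 4 endothelial markers 2 fell and 1 rose. The endothelial sum went from 927 to 1202 CPM down to 536 to 756 in C57BL/6J and from 497 to 829 down to 278 to 445 in DBA/2J, without overlap in either strain. Of 6 leukocyte markers, which bear on Hk3 and Slc2a3, 4 rose and 2 fell, and their sum moved in opposite directions in the strains. It was 113 to 139 CPM in C57BL/6J controls and 144 to 169 under normoxia, and 176 to 206 in DBA/2J controls and 114 to 131 under normoxia. Hk3 fell 5.46-fold, from 3.8, 6.05 and 5.51 CPM to 1.37, 1.66 and 1.21 in C57BL/6J and from 5.98, 7.65 and 5.74 to 0.497, 0.774 and 0.931 in DBA/2J. The part of these cells in the members' changes was not tested.

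Since so many members moved together, the 250 bases before their RefSeq transcript starts (build GRCm38.p6) were searched for ACGTG and GCGTG on both strands, the core letters that hypoxia-inducible factors bind. A palindromic CACGTG holds ACGTG on each strand and counts as 2 matches. RefSeq gave 51 promoters for 31 members, and 36 of them (70.6%) held a match, as did 38.6% of all 32851 promoters of that length. Among promoters of members that fell under normoxia the share was 76.7% (23 of 30), and among those of members that rose it was 64.3% (9 of 14). These shares count promoters and not genes, and a member with several promoters counts more than once. Base composition was not matched, and a match in these letters is a description and not a binding site. Sequences follow for 4 members that fell and 2 that rose, 5′ to 3′ on the gene's strand, with the matches in capitals.
Hk2 (chr6:82774455-82774704, minus strand): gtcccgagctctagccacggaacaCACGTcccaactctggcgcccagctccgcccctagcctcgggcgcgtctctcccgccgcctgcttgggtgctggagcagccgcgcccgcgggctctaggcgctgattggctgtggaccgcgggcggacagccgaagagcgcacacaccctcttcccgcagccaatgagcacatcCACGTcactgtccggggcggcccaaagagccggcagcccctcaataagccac
Slc16a3 (chr11:120948817-120949066, plus strand): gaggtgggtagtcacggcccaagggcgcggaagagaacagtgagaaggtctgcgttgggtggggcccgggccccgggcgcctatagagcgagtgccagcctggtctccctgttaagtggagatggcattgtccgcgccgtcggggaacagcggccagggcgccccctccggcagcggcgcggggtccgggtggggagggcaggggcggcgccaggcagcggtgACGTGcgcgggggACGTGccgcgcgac
Ldha (chr7:46845554-46845803, plus strand): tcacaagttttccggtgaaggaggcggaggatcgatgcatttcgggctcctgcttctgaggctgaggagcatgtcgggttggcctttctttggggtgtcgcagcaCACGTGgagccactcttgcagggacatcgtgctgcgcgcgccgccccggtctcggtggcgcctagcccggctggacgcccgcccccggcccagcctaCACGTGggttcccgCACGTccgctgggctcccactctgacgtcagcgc
Pgk1 (chrX:106186850-106187099, plus strand): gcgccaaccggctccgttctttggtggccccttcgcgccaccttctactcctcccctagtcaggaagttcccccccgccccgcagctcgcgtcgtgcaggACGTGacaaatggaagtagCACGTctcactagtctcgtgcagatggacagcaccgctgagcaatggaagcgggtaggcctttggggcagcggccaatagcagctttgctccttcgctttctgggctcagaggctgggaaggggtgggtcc
Ldhb (chr6:142507958-142508207, minus strand): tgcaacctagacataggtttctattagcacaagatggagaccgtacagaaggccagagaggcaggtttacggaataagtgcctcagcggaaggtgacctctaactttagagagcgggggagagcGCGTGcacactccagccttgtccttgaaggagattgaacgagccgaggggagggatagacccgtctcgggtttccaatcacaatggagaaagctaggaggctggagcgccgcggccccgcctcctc
Slc2a2 (chr3:28697653-28697902, plus strand): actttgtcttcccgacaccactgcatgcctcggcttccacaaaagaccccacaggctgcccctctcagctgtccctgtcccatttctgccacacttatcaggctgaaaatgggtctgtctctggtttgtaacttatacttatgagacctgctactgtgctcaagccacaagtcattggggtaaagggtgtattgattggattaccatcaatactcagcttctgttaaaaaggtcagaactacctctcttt
The Ldha promoter shown, 1 of 2 in RefSeq, had 5 matches and the other had 1. Of the others shown, Hk2, Slc16a3 and Pgk1 had 2 matches each, Ldhb 1 and Slc2a2 none in this window. Other members differ from these in both directions. Among those that rose, 1 promoter of Pfkfb2 (66.8% GC) and that of Pdk3 (67.6%) held 4 matches each, and 1 promoter of Pdk2 (62.4%) held 2. Among those that fell, the promoters of Eno2 (54.4% GC), Gpi1 (55.2%) and Tpi1 (58.4%) held none. Of the promoters printed, GC content ran from 62.8% to 73.6% in the 4 of members that fell and was 56.4% for Ldhb and 47.2% for Slc2a2. Under normoxia Slc16a3 fell 260.9-fold and Ldha 3.21-fold, and the relation of match number to fold change over the members was not tested.

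**Figure D3:**
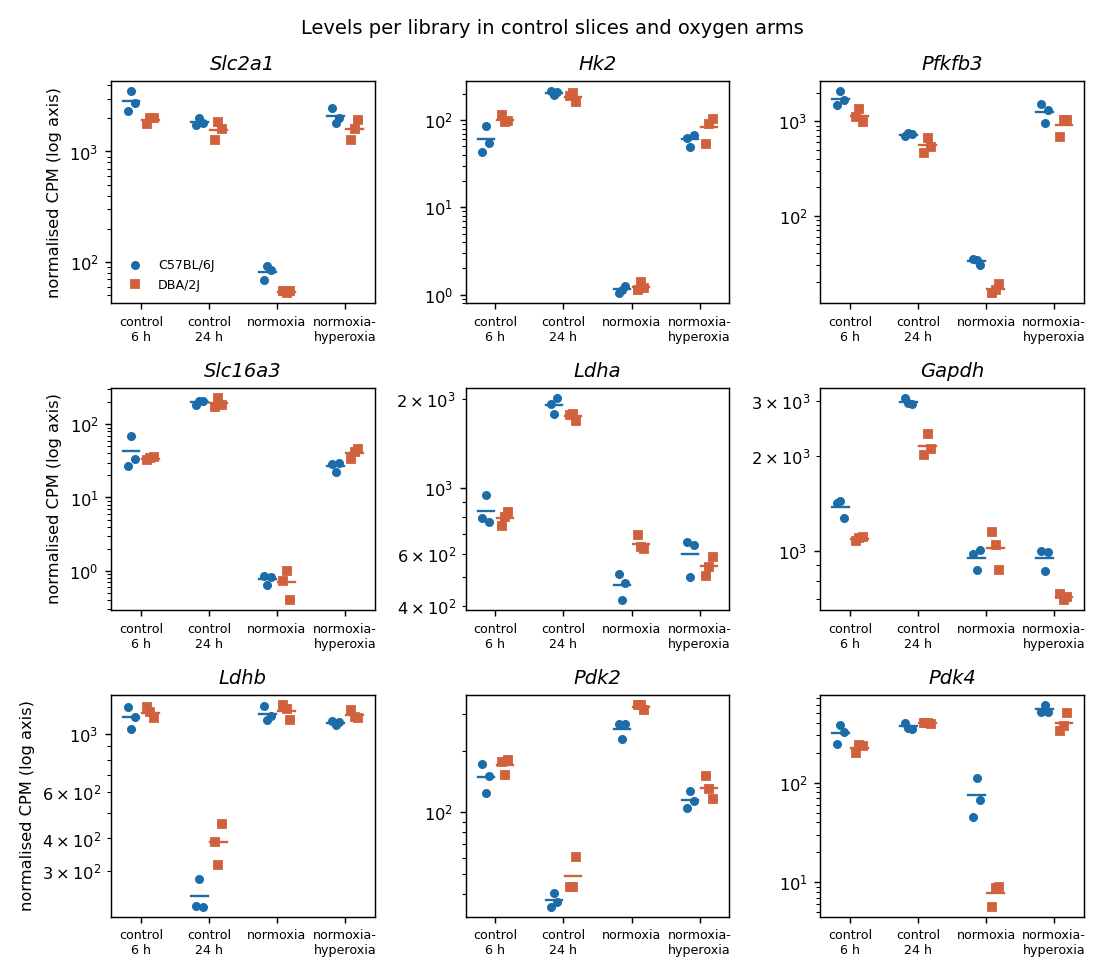
Normalised CPM (y axis, log scale) of 9 members in control slices at 6 h and 24 h and in both oxygen arms (x axis). Circles are C57BL/6J and squares DBA/2J, 3 libraries a group, with a line at the group mean. Slc2a1, Hk2, Pfkfb3, Slc16a3 and Pdk4 are lowest under normoxia, Ldha and Gapdh are low in both oxygen arms, and of these 4 conditions Ldhb is low in the 24 h controls alone.

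Set against 6 h controls, the normoxia libraries were lower in most members and higher in few. These slices are of 24 h by their titles, so arm and time in culture cannot be told apart. Here 23 fell and 3 rose, beside 32.9% and 32.9% of all genes, 65.8% together, with a median log2 fold change of -0.59 over the members and 0.02 over all genes. The decreases were led by Hk2 (67.31-fold), Pfkfb3 (61.03-fold), Eno2 (57.2-fold) and Slc16a3 (52.54-fold), with Slc2a1 at 35.78-fold. The members that rose were Pdk2 and Pklr, each 1.80-fold, and Slc2a2, 1.47-fold (log2 0.56, SE 0.15, adjusted p = 0.00541). Ldha fell 1.49-fold, Pgk1 1.503-fold and Pdk1 1.299-fold. Ldhb (log2 0.01, SE 0.08), Slc2a4 (-0.04, SE 0.09) and Slc16a1 (-0.08, SE 0.10) were not called against 6 h controls. Of 8 proximal tubule markers 7 rose in this comparison, while all 4 podocyte, all 4 endothelial and all 4 fibroblast and mural markers fell, and their part was not tested. All normoxia levels of Hk2, Pfkfb3, Eno2, Slc16a3 and Slc2a1 lay below every control library at either time.

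In the normoxia-hyperoxia arm some members stood near the 24 h controls and others lay below or above them. Against 24 h controls 19 fell and 9 rose, beside 34.1% and 34.1% of all genes, 68.2% together. The median log2 fold change was -0.87 over the members and 0.00 over all genes. Library totals as the scale moved the median of all genes to -0.17. Slc2a1, Hk1, Pfkfb1, Pfkfb4 and Pklr were not called.

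Slc2a1, Pfkfb3, Hk3 and Pdk4 stood near or above the 24 h controls. Slc2a1 was at 2456, 1800.2 and 2009.8 CPM in C57BL/6J and at 1267, 1602 and 1929 in DBA/2J, which overlaps the 24 h controls in both strains (log2 0.10, SE 0.12, adjusted p = 0.495, and -0.07 with library totals as the scale). Pfkfb3 was 1.68-fold higher than in 24 h controls (log2 0.75, SE 0.14, adjusted p = 0.000269), at 1507, 964 and 1301 CPM in C57BL/6J and 682, 1037 and 1028 in DBA/2J. Hk3, the hexokinase of blood cells, rose 2.07-fold and Pdk4 1.22-fold. Without normalisation factors, and in a fit of all 48 libraries, Pdk4 was no longer called.

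The export carrier and the main chain were below the 24 h controls. Slc16a3 fell 6.03-fold against 24 h controls (log2 -2.59, SE 0.10, adjusted p = 1.49e-10), at 28.3, 22.5 and 29.6 CPM in C57BL/6J and 33.4, 41.8 and 46.5 in DBA/2J. Hk2 fell 2.795-fold, to 49.4 to 104 CPM. Both were above their normoxia levels, which were 0.399 to 0.996 CPM for Slc16a3 and 1.04 to 1.38 CPM for Hk2. Eno1 fell 3.54-fold, Ldha 3.21-fold (log2 -1.68, SE 0.08, adjusted p = 2.24e-10), Pfkl 3.12-fold, Gapdh 3.10-fold, Pgk1 2.57-fold and Pdk1 1.33-fold. Slc16a1, the widely expressed monocarboxylate carrier MCT1, fell 2.59-fold, whereas it was not called under normoxia. The increases were led by Slc2a4 (4.365-fold), Ldhb (3.75-fold), Pdk2 (2.88-fold) and Pfkm (2.75-fold).

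Proximal tubule markers did not rise in this arm. Of 8, 5 fell and 3 were not called, and their sum was 246 to 1180 CPM. By contrast all 15 markers of thick ascending limb, distal convoluted tubule, principal and intercalated cells rose, with 3915 to 6723 CPM for the distal convoluted markers beside 554 to 1442 in 24 h controls. All 4 podocyte markers (median log2 0.95) and all 3 erythroid markers (2.26) rose too, and of 4 endothelial and 4 fibroblast and mural markers 2 rose and 1 fell in each list. Ldhb, Slc2a4 and Pfkm were high while the proximal markers were low, and the part of distal and other cells in the members' levels was not tested. Of 6 leukocyte markers 4 were higher and 2 lower. Their sum was 232 to 287 CPM in DBA/2J, above its 24 h controls of 176 to 206, and 126 to 158 in C57BL/6J, overlapping its controls of 113 to 139. Hk3 stood at 17.97, 19.06 and 21.2 CPM in DBA/2J, all above its controls, and at 4.14, 6.91 and 11.1 in C57BL/6J, which overlaps its controls. The part of leukocytes in the rise of Hk3 was not tested.

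Between the oxygen arms, 23 members were higher and 8 lower under normoxia-hyperoxia, beside 37% and 36.5% of all genes, 73.5% together. The median was 0.52 over the members and 0.02 over all genes, which library totals moved to 0.107. The members furthest apart were Hk2 (57.71-fold higher), Pfkfb3 (44.69-fold), Slc16a3 (43.66-fold) and Slc2a1 (26.80-fold), each without overlap in either strain. Slc2a2 was 13.95-fold lower under normoxia-hyperoxia, Pklr 5.29-fold, Slc16a1 2.805-fold and Pdk2 2.402-fold. Beside them, all 8 proximal tubule markers were lower (median log2 -4.61), with sums of 246 to 1180 CPM against 7572 to 17983, and their part was not tested. Podocyte and endothelial markers, 4 of 4 each, were higher, as were 4 of 6 leukocyte markers. Pgk1 was 1.36-fold higher and Pdk1 1.51-fold. Ldha (log2 0.01, SE 0.08) and Ldhb (-0.11, SE 0.07) were the 2 members not called. The call of Pfkfb1 (adjusted p = 0.0456) was lost in 11 alternative fits, 8 of them with a library left out (adjusted p up to 0.121).

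Slices of the normoxia-hyperoxia arm differed from 6 h controls in 21 members, 6 higher and 15 lower, beside 22.4% and 22.5% of all genes, 44.9% together. They are of 24 h by their titles, so arm and time in culture cannot be told apart here either. Medians were -0.20 for the members and 0.02 for all genes. Slc2a2 was 9.18-fold, Slc16a1 2.87-fold, Pklr 2.86-fold and Eno2 2.30-fold lower. All 8 proximal tubule markers were lower as well (median log2 -3.69), with sums of 246 to 1180 CPM against 3307 to 8903, and 5 of 6 leukocyte markers were higher. Their part in the members' differences was not tested. Among the members, Hk3 was 3.61-fold, Pdk4 1.76-fold, Aldoc 1.69-fold and Pfkfb4 1.42-fold higher. Ldha was 1.43-fold lower and Pdk1 1.20-fold higher. Slc2a1 (1.29-fold lower, adjusted p = 0.0298) and Pfkfb3 (1.32-fold lower, adjusted p = 0.0337) lost their calls in 7 and 6 alternative fits, both among them without replicate 2 of either strain's 6 h controls, replicate 2 or 3 of C57BL/6J normoxia-hyperoxia or replicate 1 of DBA/2J normoxia-hyperoxia (adjusted p up to 0.0653 and 0.0827). Hk2 (log2 -0.17, SE 0.18), Pgk1 (-0.09, SE 0.07) and Slc16a3 (-0.22, SE 0.20) were not called.

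Within families, the transcript makeup shifted between isoforms. Shares were computed per kilobase of annotated exon, as medians of 6 libraries or as ranges over the 3 of a strain, and carry no test. Ldha made up 23.8% of lactate dehydrogenase transcripts in 6 h controls and 73.9% at 24 h, then 17.8% under normoxia and 18.7% under normoxia-hyperoxia. The 24 h range, 63.8% to 81.3%, did not touch those of 6 h controls or of the oxygen arms, while the drug groups of 24 h had medians of 74% with tunicamycin and 74.6% with cyclosporin A. Slc16a3 made up 33.2% and 79.2% of the 2 monocarboxylate carriers at 6 h and 24 h, 1.47% under normoxia and 58.8% under normoxia-hyperoxia.

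Among phosphofructokinases, Pfkm held 37.6% at 6 h, 9.59% at 24 h, 59.3% under normoxia and 37.9% under normoxia-hyperoxia, while Pfkl led with 57.9% in 24 h controls, alone among these 4 conditions. Hk2 held 17.7% and 29.2% of hexokinase transcripts in the controls, 0.884% under normoxia and 12.5% under normoxia-hyperoxia, and Hk1 made up most of the rest. Slc2a1 held 93.7% or more of the 4 glucose carriers in every control and normoxia-hyperoxia library but less under normoxia, where the strains differed. In C57BL/6J normoxia libraries Slc2a1 led with 37.9% to 47.3%, ahead of Slc2a4 with 33.2% to 37.6% and Slc2a2 with 16.5% to 26.5%. In those of DBA/2J Slc2a2 led with 53.1% to 56.3%, ahead of Slc2a1 with 26.5% to 27.4% and Slc2a4 with 16.6% to 19.1%. Pdk4 was the leading pyruvate dehydrogenase kinase in the controls and under normoxia-hyperoxia, with medians of 47%, 70.3% and 71%. Under normoxia Pdk2 led in both strains, with 55.1% to 68.1% in C57BL/6J and 79.5% to 80.2% in DBA/2J, while Pdk4 held 10.3% to 24.3% and 1.23% to 2.04%. The strains also did not overlap under normoxia for Ldha (14.9% to 16.2% in C57BL/6J and 19.4% to 20.7% in DBA/2J), Slc16a3 (2.07% to 2.601% and 0.306% to 0.877%) and Hk2 (0.508% to 0.623% and 1.15% to 1.37%), so that their medians over 6 libraries lie between the strains. For Ldha the same held in 24 h controls, with 75.1% to 81.3% and 63.8% to 72.6%. The strains also did not overlap for Slc16a3 in 6 h and 24 h controls, Hk2 in 6 h controls and Pfkl in 24 h controls. Nor did they for Pfkm under normoxia and Pdk4 under normoxia-hyperoxia. These medians, too, lie between the strains.

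**Figure D4:**
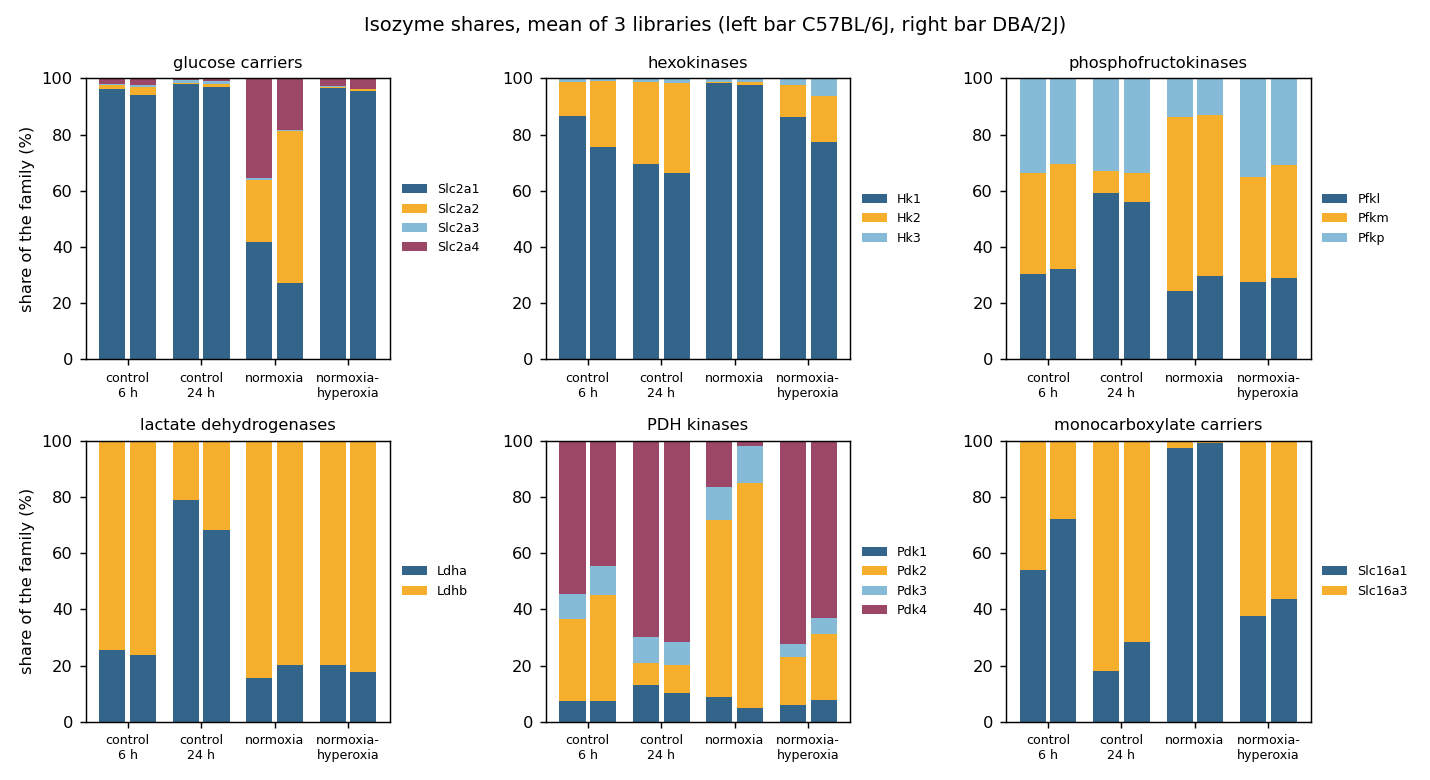
Share of each family's transcripts per kilobase (%, y axis, stacked to 100) by condition (x axis), as the mean of 3 libraries, with C57BL/6J on the left and DBA/2J on the right of each pair. Of the 4 conditions shown, Ldha leads its family in 24 h controls alone, and Slc2a1, Hk2, Pdk4 and Slc16a3 have their smallest shares under normoxia.

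Neighbouring pathways from lists that are no part of the 33 were counted in the same way. Beside them, 34.7% of all genes rose and 37.4% fell from 6 h to 24 h, 42.4% rose and 39.7% fell under normoxia, and 34.1% rose and 34.1% fell under normoxia-hyperoxia, so that most genes of any list are called. The pentose phosphate enzymes, which branch off after hexokinase to make NADPH, mostly changed in the directions of the main chain. Of 7, 5 rose and 2 fell from 6 h to 24 h, 1 rose and 5 fell under normoxia, and 5 fell and none rose under normoxia-hyperoxia against 24 h controls. Pgd, 6-phosphogluconate dehydrogenase, had log2 fold changes of 2.35, -2.37 and -2.22 in these comparisons, G6pdx 1.61, -1.62 and -1.53, and Taldo1 1.70, -1.65 and -1.71. The last 2 comparisons share their control libraries with each other and with the first.

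Genes of pyruvate oxidation and lactate uptake mostly fell with time and rose under normoxia. Of 15, 2 rose and 13 fell with time, 13 rose and 2 fell under normoxia, and 9 rose and 4 fell under normoxia-hyperoxia, with a median log2 fold change of 0.41 in the last. Slc5a8, a sodium-coupled lactate carrier of the proximal tubule, fell by 2.97 and then rose by 4.22 on the log2 scale, Slc16a7 fell by 2.25 and rose by 2.41, and Pdp2, a phosphatase that opposes the kinases, fell by 2.03 and rose by 3.17. Beside these, the proximal tubule markers had medians of -2.68 with time and 3.73 under normoxia, and their part was not tested. Bsg, which encodes the chaperone that MCT1 and MCT4 need at the membrane, was an exception, with 1.22 and -1.37. Among the 11 other hexose carriers and kinases 3 rose and 8 fell with time, 7 rose and 4 fell under normoxia, led by the fructose carrier gene Slc2a5 (log2 4.62, SE 0.11), and 5 rose and 4 fell under normoxia-hyperoxia. Other glycolytic enzymes mostly fell with time and rose under normoxia. Of 6 reported, Bpgm, Pgam2, Eno3, Tigar, Gpd1 and Gpd2, 1 rose and 4 fell with time, 4 rose and 2 fell under normoxia, and 3 rose and 2 fell under normoxia-hyperoxia. Bpgm, which makes 2,3-bisphosphoglycerate, had log2 fold changes of -0.77, 1.29 and 0.79 in these comparisons, Pgam2, the muscle-type phosphoglycerate mutase, -1.32, 0.89 and 1.79, and Gpd1, the cytosolic glycerol-3-phosphate dehydrogenase, -1.53, 2.498 and 0.01, the last not called.

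Of 10 regulators of oxygen and glucose responses, 5 rose and 4 fell with time, and 3 rose and 7 fell under normoxia against 24 h controls. Myc fell by 5.07 (SE 0.08) and Egln3, an oxygen sensor that is itself hypoxia-inducible, by 3.54 (SE 0.10) on the log2 scale. Mlxipl, the carbohydrate-responsive factor ChREBP, rose by 3.98 (SE 0.12). In the normoxia-hyperoxia arm 6 of the 10 rose and 3 fell, and Egln1, the main oxygen sensor, fell by 1.43 (SE 0.08).

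By the edgeR test, strain differences in response were called for 15 members under normoxia and for none in the other 2 comparisons tested. For the strain difference in response, DBA/2J minus C57BL/6J, edgeR called 0 of 33 members for 24 h against 6 h controls, where 0.69% of all genes were called, with 7 at an unadjusted p under 0.05, 2 by DESeq2, 1 with the replicate block and 6 without a filter on low counts. For normoxia-hyperoxia against 24 h controls it called 0 of 33, beside 1.43% of all genes, with 8 at an unadjusted p under 0.05, 2 by DESeq2, 3 with the replicate block and 8 without a filter. For normoxia against 24 h controls it called 15 of 33, beside 17% of all genes, 6 with a positive and 9 with a negative difference, beside 10.1% and 6.88%.

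Pdk4 differed most. It fell 4.915-fold in C57BL/6J, from 399, 354 and 344 CPM to 45.4, 112 and 66.5, and 47.58-fold in DBA/2J, from 397, 397 and 389 to 5.70, 8.85 and 9.002. The difference in response was -3.28 on the log2 scale (SE 0.40, adjusted p = 0.000579), and the normoxia libraries of the strains did not overlap. Tpi1 (0.71, SE 0.13), Pgam1 (0.58, SE 0.12) and Ldha (0.67, SE 0.14, adjusted p = 0.00395) fell less in DBA/2J. For Ldha the decrease was 4.045-fold in C57BL/6J slices but 2.54-fold in DBA/2J slices. Gapdh and Pgk1 (0.48, SE 0.12) also fell less in DBA/2J, and Hk1, Hk3, Pdk1 (-0.50, SE 0.13) and Eno2 fell more. Slc2a4, Pfkm and Ldhb rose less in DBA/2J. Beside these differences, marker lists also had a negative strain difference in response: 3 of 3 distal convoluted markers were called (median -1.50 on the log2 scale), 4 of 6 leukocyte markers (-0.80), 2 of 4 fibroblast and mural markers (-1.01), 2 of 8 proximal tubule markers (-0.54) and 1 of 4 thick ascending limb markers (-1.15), and no marker of these lists was called in the positive direction. Their part in the members' differences was not tested. Slc2a1 (-0.27, SE 0.18), Hk2 (0.35, SE 0.22), Pfkfb3 (-0.51, SE 0.18) and Slc16a3 (-0.07, SE 0.36) were not called.

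Within strains 76.1% (C57BL/6J) and 74.3% (DBA/2J) of all genes were called between normoxia and 24 h controls. Aldoc, the brain-type aldolase, was 1.65-fold higher under normoxia in C57BL/6J (adjusted p = 0.0336), and in DBA/2J it was 1.79-fold lower (adjusted p = 0.02). Its C57BL/6J normoxia libraries were at 9.23, 22.1 and 22.9 CPM, of which the first lay below and the other 2 above its controls of 9.40 to 12.5 CPM. Aldoc and Slc16a1 were singled out after their values were seen, for their opposite directions. Slc16a1 was 1.62-fold higher in DBA/2J (adjusted p = 0.0052), at 93.2, 93.7 and 108 CPM beside 84.1, 51.6 and 56.8 in its controls, and was not called in C57BL/6J (log2 -0.44, SE 0.20). Of the 15 calls, 7 were lost in at least 1 alternative fit, those of Aldoc, Gapdh, Hk1, Hk3, Ldhb, Pgk1 and Slc16a1. Slc16a1 lost its call without replicate 3 of the C57BL/6J 24 h controls or replicate 2 or 3 of the DBA/2J 24 h controls (adjusted p up to 0.0735). Aldoc lost its call without C57BL/6J 24 h control replicate 1, C57BL/6J normoxia replicate 2 or DBA/2J normoxia replicate 2 or 3 (adjusted p up to 0.0552). Gapdh and Pgk1 lost theirs without replicate 3 of either strain's 24 h controls or replicate 1 of the DBA/2J ones (adjusted p up to 0.0746 and 0.134), Pgk1 also in the fit of all 48 libraries. Hk1 lost its call without replicate 1 or 2 of the C57BL/6J 24 h controls, replicate 2 or 3 of C57BL/6J normoxia or replicate 1 or 3 of DBA/2J normoxia (adjusted p up to 0.0654). Hk3 lost its call in the fit of all 48 libraries and without C57BL/6J 24 h control replicate 1, DBA/2J 24 h control replicate 2, any single C57BL/6J normoxia library or DBA/2J normoxia replicate 1 or 2 (adjusted p up to 0.113). Ldhb lost its call with the replicate block and without replicate 1 or 3 of the C57BL/6J 24 h controls, replicate 3 of the DBA/2J 24 h controls, any single C57BL/6J normoxia library or DBA/2J normoxia replicate 2 or 3 (adjusted p up to 0.109).

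**Figure D5:**
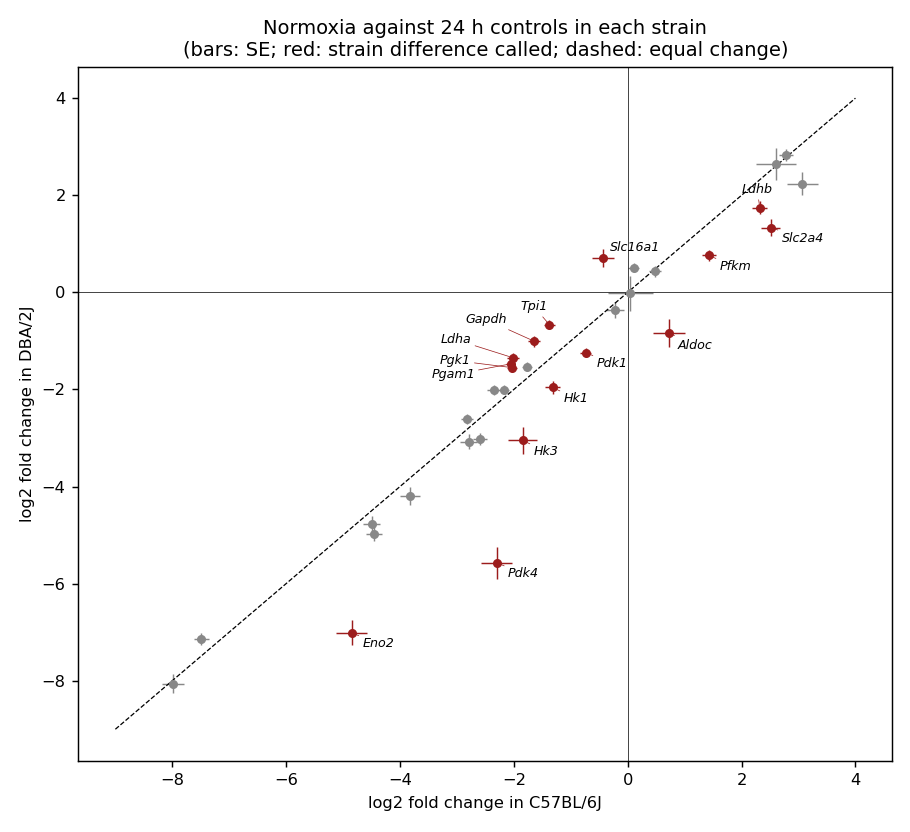
Log2 fold change of normoxia against 24 h controls in C57BL/6J (x axis) and DBA/2J (y axis) for the 33 genes, with bars for the SE. Red points with names are the 15 members whose difference between strains was called, and the dashed line marks equal change. Pdk4 and Eno2 lie furthest below the line, and Slc16a1 and Aldoc have opposite signs in the strains.

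Between the strains at a given condition, DBA/2J differed from C57BL/6J in 12 of 33 members in 6 h controls (26.2% of all genes), 8 in 24 h controls (22.2%), 20 under normoxia (46.8%) and 11 under normoxia-hyperoxia (25.7%). At 6 h 6 members were higher and 6 lower in DBA/2J, beside 13.6% and 12.7% of all genes. At 24 h 5 were higher and 3 lower, beside 13.9% and 8.27%. Under normoxia 8 were higher and 12 lower, beside 28.3% and 18.5%. Under normoxia-hyperoxia 6 were higher and 5 lower, beside 14.3% and 11.3%. With library totals as the scale, the median difference of all genes in 6 h controls moved to 0.145 (log2) and the split became 7 higher and 3 lower. Leaving out replicate 2 or 3 of the C57BL/6J 6 h controls, or replicate 1 of the DBA/2J 6 h controls, left 7 calls.

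Eno2 was higher in DBA/2J, 3.18-fold at 6 h and 6.74-fold at 24 h (log2 2.75, SE 0.19, adjusted p = 6.11e-07). Its 24 h levels were 34.6, 43.5 and 29.6 CPM in C57BL/6J and 192, 309 and 221 in DBA/2J. Under normoxia-hyperoxia it was 3.14-fold higher. Under normoxia it was not called (log2 0.59, SE 0.33, adjusted p = 0.166), and the strains overlapped, at 1.37, 1.18 and 1.15 CPM in C57BL/6J and 1.76, 2.27 and 1.33 in DBA/2J. Gpi1, the isomerase after hexokinase, was lower in DBA/2J in all 4 conditions, by 1.99-fold, 1.77-fold, 1.39-fold and 1.81-fold in the order of the counts above. Slc16a1 was higher in DBA/2J in all 4, by 1.92-fold, 1.77-fold, 3.865-fold (log2 1.95, SE 0.14, adjusted p = 1.62e-07) and 1.95-fold. Pklr was higher by 1.80-fold, 3.60-fold, 2.01-fold and 3.65-fold, and Slc2a2 by 2.56-fold at 24 h, 2.62-fold under normoxia and 4.74-fold under normoxia-hyperoxia. Its 6 h difference was not called. Beside Slc2a2 and Pklr, the summed proximal tubule markers were also higher in DBA/2J without overlap in all 4 conditions: 7453 to 8903 CPM against 3307 to 6448 at 6 h, 1093 to 2346 against 447 to 639 at 24 h, 16313 to 17983 against 7572 to 10404 under normoxia, and 784 to 1180 against 246 to 402 under normoxia-hyperoxia. Their part in the strain differences was not tested. The Pklr call at 6 h was lost without any single 6 h control except replicate 1 of C57BL/6J, without any single C57BL/6J 24 h control, without replicate 3 of the DBA/2J 24 h controls and in the fit of all 48 libraries (adjusted p up to 0.136). The Slc2a2 call at 24 h was lost without replicate 1 of either strain's 24 h controls.

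Under normoxia Pdk1 (1.68-fold), Hk1 (1.955-fold), Slc2a4 (1.79-fold), Slc2a1 (1.43-fold) and Pfkfb3 (1.85-fold) were lower in DBA/2J, and Ldha was 1.46-fold higher. In the same libraries, sums of several marker lists were lower in DBA/2J without overlap: 2144 to 4388 CPM against 8867 to 15278 for thick ascending limb, 1506 to 1993 against 2522 to 3551 for distal convoluted tubule, 385 to 467 against 788 to 862 for principal cells and 195 to 277 against 424 to 508 for intercalated cells. Podocyte sums were 480 to 605 against 837 to 1095 CPM and endothelial sums 278 to 445 against 536 to 756. The part of these cells in the lower levels was not tested. The Slc2a1 call was lost without replicate 2 of either strain's normoxia group. At 6 h Hk2 was 1.68-fold higher, Pfkfb3 1.49-fold lower and Slc2a1 1.45-fold lower in DBA/2J. Of these, the Pfkfb3 and Slc2a1 calls were lost without replicate 2 of the C57BL/6J 6 h controls, among others. In 6 h controls some sums were also lower in DBA/2J without overlap, whereas the proximal tubule sum was higher. They were 3565 to 5853 against 8840 to 10356 CPM for thick ascending limb and 252 to 296 against 370 to 422 for intercalated cells. Podocyte sums were 1340 to 1543 against 2028 to 2190 CPM and endothelial sums 583 to 824 against 971 to 1393. Their part was not tested. At 24 h none of Slc2a1, Hk2, Pfkfb3, Pgk1, Ldha, Pdk1 and Slc16a3 was called, and under normoxia-hyperoxia Slc16a3 alone was, 1.502-fold higher in DBA/2J (log2 0.59, SE 0.16, adjusted p = 0.012). That call was lost without replicate 3 of DBA/2J normoxia-hyperoxia (adjusted p = 0.0533) and in a fit of all 48 libraries (adjusted p = 0.061).

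Eno1 was called lower in DBA/2J in all 4 conditions, by 1.37-fold, 1.40-fold, 1.26-fold and 1.37-fold, but its counts are uncertain there. Eno1b, a near-identical copy of Eno1, held 15.2% to 18.7% of the Eno1 count in DBA/2J libraries and 0.0862% to 0.280% in C57BL/6J libraries. The sum of both genes at 24 h was 1620 ± 72.6 CPM in C57BL/6J controls and 1330.5 ± 96.7 in those of DBA/2J (SD, n = 3), a ratio nearer to equality than that of Eno1 alone. Reads that overlap between genes on the same strand are a limit for Pkm, where the overlapping gene Gm49759 had 4.84% to 11.3% of the Pkm count. They also limit Pfkfb2, where Gm29427 covers 17.4% of the exon length.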

How the data were processed

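RNA of kidney slices was isolated by a Qiagen midi kit, and libraries were prepared by Illumina's stranded mRNA ligation method, per the labels' protocols. The submitters' processing notes name bcl2fastq 2.20.0, FastQC 0.11.8, STAR 2.7.9a, featureCounts 1.5.1 and the genome build GRCm38. The authors deposited raw read counts per gene ID for 48 libraries. The annotation release, strand setting and read filters are not given in the sources used here, so overlapping genes on opposite strands may share reads.

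Each comparison was fitted on its own 12 libraries (2 conditions, 2 strains, 3 replicates) with edgeR 4.0.16 in R 4.3.3 (quasi-likelihood F test, TMM factors, filterByExpr by group). P-values were adjusted by Benjamini-Hochberg over all genes tested and called under 0.05. Fold changes between conditions average both strains. Alternatives were RLE factors (limma 3.58.1 was loaded with edgeR), library totals, no filter, DESeq2 1.42.0, a replicate block, all 48 libraries in 1 fit and each library left out. The fit was tested on simulated data. Levels are CPM with TMM factors over 48 libraries, and levels per kilobase use GENCODE M21 exon lengths. Members and neighbouring lists were chosen with earlier results of these data known. In comparisons of time or oxygen the 4 largest increases and decreases among called members were named (for normoxia-hyperoxia against 6 h controls, after the values were seen), in drug and strain comparisons up to 4 by smallest p, and always Slc2a1, Hk2, Pfkfb3, Pgk1, Ldha, Pdk1 and Slc16a3. Other members were named after their values were seen, to account for the list. One gene of a neighbouring list is not reported here.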

Additional observations from a re-analysis of the deposited data

Results flagged for a closer look

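For 15 members the normoxia response against 24 h controls differed between strains by the edgeR interaction test, given here as the DBA/2J minus the C57BL/6J log2 fold change with its adjusted p. Among members that fell in both strains, the decrease was larger in DBA/2J for Pdk4 (-3.28, adjusted p = 0.000579), Eno2 (-2.16, adjusted p = 0.00789), Hk3 (-1.20, adjusted p = 0.0407), Hk1 (-0.64, adjusted p = 0.0252) and Pdk1 (-0.50, adjusted p = 0.0173). It was smaller in DBA/2J for Tpi1 (0.71, adjusted p = 0.00248), Ldha (0.67, adjusted p = 0.00395), Gapdh (0.64, adjusted p = 0.0115), Pgam1 (0.58, adjusted p = 0.00363) and Pgk1 (0.48, adjusted p = 0.0157). Members that rose in both strains rose less in DBA/2J, with differences of -1.17 for Slc2a4 (adjusted p = 0.00526), -0.66 for Pfkm (adjusted p = 0.0171) and -0.57 for Ldhb (adjusted p = 0.0388). Slc16a1 (1.14, adjusted p = 0.0165) and Aldoc (-1.56, adjusted p = 0.0223) had opposite signs in the strains. Over all genes tested, 17% had a called difference of this kind. The calls of Aldoc, Gapdh, Hk1, Hk3, Ldhb, Pgk1 and Slc16a1 were lost in at least 1 alternative fit. Eno2 differed between strains in the 24 h controls, at 29.6 to 43.5 CPM in C57BL/6J and 192 to 309 in DBA/2J. Under normoxia its levels in the 2 strains overlapped.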

How the results depend on the processing

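No called member changed direction under any alternative run. Over the 228 calls of single members, from all 33 genes, the call held in 1338 fits with another setting and was lost in 30, and with 1 library left out it held in 2628 and was lost in 108. For the strain difference in response of 24 h against 6 h controls, the count of 0 became 6 without a filter on low counts, 2 with DESeq2 and 0 to 1 with each library left out. For that of normoxia-hyperoxia against 24 h controls, 0 became 8 without a filter, 2 with DESeq2 and 0 to 3 with each library left out (3 without replicate 2 of the DBA/2J 24 h controls). The 11 calls between strains under normoxia-hyperoxia became 17 without a filter, and the 12 calls in 6 h controls ranged from 7 to 14 with each library left out. The cause was not tested. Depth limits Pfkfb1, with as few as 3 counts in a library.

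Same-numbered libraries were not shown to be paired. Correlations of their deviations from group means ran from -0.139 to 0.366, and no comparison had all 6 pairs above 0.1. The mean per comparison was positive throughout, from 0.014 (24 h against 6 h controls) to 0.18 (normoxia against 6 h controls). Within 1 strain, all 3 pairs were above 0.1 in 6 of 20 cases, among them DBA/2J with tunicamycin at 24 h (0.211, 0.216 and 0.202). With the replicate block the count became 1 for tunicamycin at 24 h and 1 and 3 for the 2 strain differences in response above, and stayed within 1.5 times the main count elsewhere. Slc16a3 with tunicamycin at 6 h became 0.0382 with the block.

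Uncalled estimates were followed across alternatives for 7 members only (Slc2a1, Hk2, Pfkfb3, Pgk1, Ldha, Pdk1 and Slc16a3), and each estimate that changed sign was among these. With library totals as the scale, log2 values were -0.0026 for Pgk1 and -0.0187 for Slc16a3 (cyclosporin A, 6 h), 0.0142 for Slc16a3 (cyclosporin A, 24 h), -0.0723 for Slc2a1 (normoxia-hyperoxia against 24 h controls), 0.0291 for Ldha (its strain difference, 0.0004 with RLE factors), 0.0428 for Pgk1 and 0.0894 for Ldha (strains, 6 h), 0.016 for Slc16a3 (strains, 24 h) and 0.0369 for Pgk1 (strains, normoxia-hyperoxia).

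With each library left out, log2 values crossed 0 in the following ranges. With tunicamycin at 6 h they were -0.0651 to 0.1145 for Slc2a1, -0.0943 to 0.1389 for Pfkfb3 and -0.1362 to 0.2339 for Slc16a3, and at 24 h -0.0231 to 0.1178 for Pfkfb3 and -0.0625 to 0.0167 for Pgk1. With cyclosporin A at 6 h they were -0.2097 to 0.0488 for Hk2, -0.0267 to 0.1767 for Pfkfb3, -0.0054 to 0.0716 for Pgk1, -0.0474 to 0.0342 for Ldha and -0.1197 to 0.2598 for Slc16a3. At 24 h they were -0.1041 to 0.0667 for Slc2a1, -0.1216 to 0.0454 for Hk2 and -0.064 to 0.0907 for Slc16a3. Between strains they were -0.1415 to 0.0015 for Pgk1, -0.0985 to 0.0585 for Ldha and -0.5288 to 0.2162 for Slc16a3 at 6 h, and for Slc16a3 -0.142 to 0.0655 at 24 h and -0.3829 to 0.2095 under normoxia. For strain differences in response they were -0.2646 to 0.4801 (time) and -0.359 to 0.2326 (normoxia) for Slc16a3, and under normoxia-hyperoxia -0.3038 to 0.0413 for Slc2a1, -0.2491 to 0.1232 for Pfkfb3 and -0.1392 to 0.0692 for Ldha. Ldha between the oxygen arms ran from -0.0455 to 0.0673, and Slc16a3 in normoxia-hyperoxia against 6 h controls from -0.3451 to 0.0343.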
